A study of Caenorhabditis elegans with 30 samples.

Results

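Transcript levels of osm-11 mutant worms were compared with those of wild type N2 worms, both on isotonic plates. The comparison used 6 of the 30 arrays of the series, namely the 3 arrays labelled osm-11(n1604) and the 3 labelled N2 on 51 mM NaCl, and covered all 22548 probe sets that are not Affymetrix controls. The other arrays held osm-7(n1515), osm-8(n1518), dpy-9(e12) and dpy-10(e128) mutants on isotonic plates and N2 worms placed on 200 mM NaCl for different times, in 10 groups of 3. Besides the isotonic N2 arrays, the osm-11 arrays were set directly against the 3 osm-7(n1515) arrays and against the 3 arrays of N2 worms kept for 1 generation on 200 mM NaCl, called salt-grown N2 below. All groups were synchronized young adult worms grown at 20 °C and sorted by machine before RNA was taken from the whole animals. N2 is the standard wild type strain, and the labels name no further allele in any strain. Each mutant is 1 strain with 1 allele, and each sample pooled many worms, so a whole worm level cannot separate a change in cell number from a change of RNA per cell. The labels carry the same protocol for all samples, in which worms were washed off and moved to plates of either NaCl level while the mutants stayed on isotonic plates, whereas the study's methods describe a transfer of adults only for the short exposures and growth from the L1 stage for salt-grown N2. Whether isotonic N2 and osm-11 worms were handled alike is therefore not settled, and handling and genotype cannot be told apart. The labels give separate replicates without saying whether they came from separate cultures, so the p-values measure the spread between these samples.

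OSM-11 is a small secreted protein of the DOS motif family, which in C. elegans also includes OSM-7 and acts beside the DSL ligands as a co-ligand of the Notch receptors LIN-12 and GLP-1. Worms that lack it live in salt concentrations that kill wild type worms and hold high levels of glycerol on ordinary plates. In wild type worms, glycerol is the main solute made against water loss, and glycerol-3-phosphate dehydrogenase makes its precursor. The epidermis, which secretes the cuticle, and the intestine are the tissues where this response is best known.

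Values are log2 intensities as normalized by the authors with GC-RMA, given in the order of replicates 1, 2 and 3. A probe set was tested if its third-highest log2 intensity over the 30 arrays was at least 3.2, which left 14038 probe sets, and called if its change was at least 3-fold with an adjusted p of at most 0.01 in limma. A group mean at or below 3.42 was taken as near the background, and a difference involving such a mean gives only the least size it can have. The median intensity, on the linear scale, was 10.5 to 11 in the osm-11 arrays and 9.94 to 11.3 in the N2 arrays, and Pearson's r of replicate pairs over all probe sets ran from 0.991 to 0.997 in osm-11 and from 0.992 to 0.997 in N2. The median SD of a probe set was 0.174 in osm-11 and 0.175 in N2, and the median standard error of a change was 0.199. Over all probe sets tested the median change was -0.11 on the log2 scale, and with each array centred on its own median it was -0.21. The changes below were not shifted by this median.

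In osm-11 worms, 441 probe sets were called higher than in N2 (3.14% of those tested) and 30 lower (0.214%). Most calls were thus rises, whereas among all probe sets tested most changes did not lie above 0 (36.3% did). Of the 441, 413 stood for 1 gene, 23 for several and 5 for none that is named, and the 413 came from 367 genes. With 1 probe set a gene, 349 of 10476 genes were called higher (3.33%) and 29 lower (0.277%). The 3 osm-11 values did not overlap the 3 N2 values in 440 of the 441 and in all 30 of the lower ones. The thresholds of a call nearly fix this, so it adds no support to the calls. The median size of a called change was 2.05 among the higher and 2.21 among the lower, and 69 and 3 of them reached 8-fold. N2 lay near the background in 88 of the 441, and osm-11 in 11 of the 30. Of the probe sets tested, 125 passed the filter only through the osm-11 arrays, and 9 of these were among the 441. The filter favours a high osm-11 level in such probe sets, so these 9 calls are not independent of it.

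**Figure D1:**
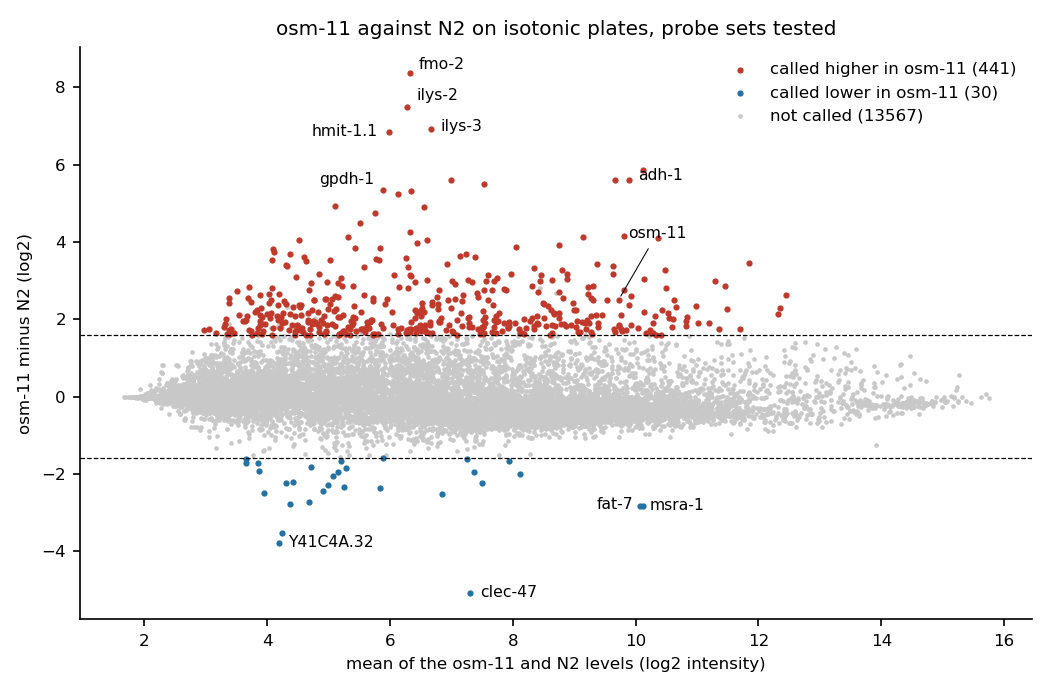
Each point is 1 of the 14038 probe sets tested, with the mean of the osm-11 and N2 log2 intensities across and the osm-11 minus N2 log2 difference upwards, and the dashed lines mark 3-fold. The 441 probe sets called higher in osm-11 reach 8.37 (fmo-2) and the 30 called lower reach -5.08 (clec-47), while most probe sets lie slightly below 0.

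The transcript of the mutated gene itself was more abundant in the mutant. The osm-11 probe set with the higher level read 11.18, 10.78 and 10.98 in osm-11 worms, against 8.63, 8.30 and 8.48 in N2, and its other probe set changed by 1.85 and was called too. The groups were far apart compared with the spread within either. What n1604 does to the RNA is not given in the sources used here, so this neither checks nor contradicts the strain label. In the salt-grown N2 arrays the same probe set read 10.20, 10.05 and 10.20. The transcripts of osm-7 (3.41, 3.31 and 3.40 in osm-11 worms, against 2.98, 3.26 and 3.32 in N2) and of osm-8, a mucin-like protein gene (2.35, 2.38 and 2.35 against 2.37, 2.35 and 2.41), lay near the background in both groups.

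Among 21 measured genes of Notch ligands, receptors and their processing, 2 were called higher and none lower, with a median change of -0.27 beside -0.10 over all genes tested. The 2 were osm-11 and dsl-3, a DSL ligand gene. dsl-3 read 5.54, 4.73 and 6.28 in osm-11 worms, against 3.08, 3.05 and 3.02 in N2, where it lay near the background (change 2.47, standard error 0.421, adjusted p = 0.0005, n = 3 arrays a group). Its call was lost with only the 2 groups fitted (adjusted p = 0.0125 in limma) and with 32 added to every intensity, which shrinks changes of dim probe sets (change 0.98). The GATA factor gene elt-3, which acts in the epidermis, was the only called member of 8 GATA genes. It read 7.32, 6.56 and 7.36 in osm-11 worms, against 5.61, 5.31 and 5.41 in N2, a change of 1.64. Its second probe set changed by 0.75 and was not called, and the call of the first was lost at 1.52 without osm-11 replicate 1, at 1.5 without osm-11 replicate 3 and at 1.57 without N2 replicate 2. The intestinal GATA factor gene elt-2 read 3.81, 3.91 and 4.14 in osm-11 worms, against 3.48, 3.79 and 4.01 in N2, where the values overlap, and was not called on either of its probe sets (changes 0.20 and 0.71).

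The largest rise was that of fmo-2, a flavin-containing monooxygenase gene, at 10.16, 10.28 and 11.09 in osm-11 worms against 2.13, 2.13 and 2.15 in N2 (change 8.37, standard error 0.324, adjusted p = 4.93e-11). Every osm-11 array was thus bright and every N2 array at the background. The invertebrate-type lysozyme genes ilys-2 and ilys-3 stood next, ilys-2 at 10.08, 9.43 and 10.55 in osm-11 worms against 2.46, 2.66 and 2.48 in N2, and ilys-3 at 9.81, 9.40 and 11.16 in osm-11 worms against 3.37, 3.14 and 3.12 in N2 (change 6.91, standard error 0.297, adjusted p = 1.64e-10). Other genes were already well above the background in N2 and became some of the brightest. The alcohol dehydrogenase gene adh-1 read 12.51, 12.16 and 13.39 in osm-11 worms, against 7.17, 7.01 and 7.09 in N2 (change 5.60, standard error 0.25, adjusted p = 2.55e-10). F53A9.8, to which no role is given here, read 12.87, 12.74 and 13.56 in osm-11 worms, against 6.94, 6.94 and 7.69 in N2. C50F7.5, likewise without a given role, read 12.56, 12.37 and 12.49 in osm-11 worms, against 6.33, 7.28 and 6.96 in N2. In both genes the lowest osm-11 array stood far above the highest N2 array. The other 2 probe sets of C50F7.5 did not show this rise, with changes of -0.01 and 0.52, and did not pass the filter, so every C50F7.5 value given here rests on 1 of its 3 probe sets.

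The metallothionein gene mtl-1 rose by 5.60 and was uneven among the osm-11 arrays, at 9.60, 8.92 and 10.90 in osm-11 worms against 3.99, 4.07 and 4.54 in N2. It was the only called member of 6 genes of the metallothionein and cadmium response list. The other genes among the 15 largest rises were hmit-1.1, aagr-1, gpdh-1, D1086.3, cnc-7, F41E6.5, dpy-14 and lipl-1, with changes between 4.74 and 6.84. D1086.3 (9.37, 8.56 and 9.12 in osm-11 worms, against 4.17, 4.31 and 2.58 in N2) has no given role. For F41E6.5 the probe sets disagreed, with 4.94 on the brighter and 0.18 on the other.

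**Figure D2:**
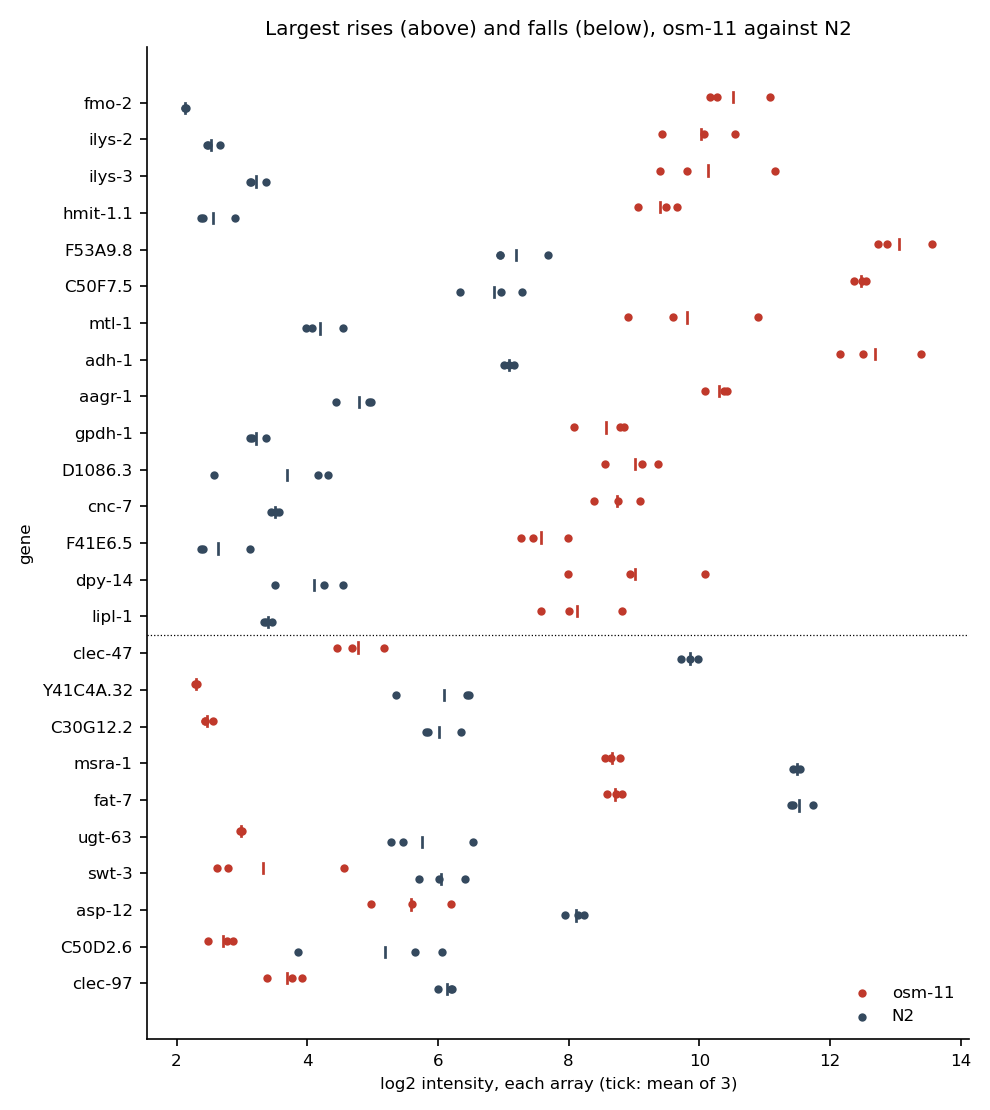
Log2 intensity of each array (points) and group mean (ticks) for the 15 largest rises, above the dotted line, and the 10 largest falls, below it, with osm-11 arrays drawn above N2 arrays in each row. Only genes whose osm-11 and N2 values do not overlap were chosen, so their separation here is not a result. Among the falls, swt-3 has 1 osm-11 array at 4.57 while the others lie at 2.79 and 2.62.

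The 30 lower probe sets held few groups. The C-type lectin gene clec-47 fell most, at 4.68, 4.46 and 5.18 in osm-11 worms against 9.98, 9.72 and 9.86 in N2 (change -5.08, standard error 0.267, adjusted p = 1.53e-09). Another lectin gene, clec-97, read 3.38, 3.77 and 3.92 in osm-11 worms, against 6.21, 6.00 and 6.20 in N2. The methionine sulfoxide reductase gene msra-1, which repairs oxidized methionine, fell while staying bright, at 8.65, 8.56 and 8.78 in osm-11 worms against 11.49, 11.44 and 11.55 in N2 (change -2.83, standard error 0.125, adjusted p = 2.36e-10). Both groups were tight. The stearoyl-CoA desaturase gene fat-7 changed by -2.82, the UDP-glucuronosyltransferase gene ugt-63 by -2.78, the sugar transporter gene swt-3 by -2.72 and the aspartyl protease gene asp-12 by -2.52. ugt-63 was near the background in osm-11 worms (2.97, 3.0 and 2.99, against 6.53, 5.29 and 5.47 in N2), as were swt-3, C30G12.2, C50D2.6 and Y41C4A.32. C30G12.2 read 2.43, 2.56 and 2.43 in osm-11 worms, against 6.35, 5.85 and 5.82 in N2. The short-chain dehydrogenase gene dhs-25 also fell, at 6.49, 6.40 and 6.28 in osm-11 worms against 8.68, 8.55 and 8.61 in N2 (change -2.22, adjusted p = 2.83e-08).

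Genes of solute metabolism and uptake were among the strongest rises. The list for osmolyte synthesis and uptake also holds trehalase and acid alpha-glucosidase genes, so its counts are not counts of synthesis and uptake alone. Of its 18 genes, 7 were called higher and none lower, and the median change of the list was 1.37. Over all genes tested, 3.33% were called higher, 0.277% lower and the median was -0.10, which is the background for this and each further list. Of these, hmit-1.1, which encodes a proton-coupled myo-inositol transporter, read 9.65, 9.06 and 9.48 in osm-11 worms, against 2.40, 2.38 and 2.9 in N2. gpdh-1, the glycerol-3-phosphate dehydrogenase gene induced by salt, read 8.84, 8.79 and 8.08 in osm-11 worms, against 3.16, 3.37 and 3.12 in N2. aagr-1, an acid alpha-glucosidase gene, read 10.43, 10.08 and 10.38 in osm-11 worms, against 4.94, 4.98 and 4.43 in N2. The trehalase gene tre-5 was near the background in N2, at 6.78, 5.57 and 5.70 in osm-11 worms against 2.18, 2.17 and 2.20 in N2 (change 3.83, standard error 0.333, adjusted p = 4.31e-07). The other called members were snf-3, a betaine transporter gene (3.06), aagr-2 (1.90) and the trehalase gene tre-3 (1.85). The trehalose-phosphate synthase genes tps-1 and tps-2 changed by 1.41 and 0.37 and gpdh-2 by 1.05, without a call.

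Of 7 aquaporin genes, whose products pass water or glycerol, 2 were called higher. aqp-8 read 9.14, 8.91 and 9.19 in osm-11 worms, against 5.81, 5.54 and 4.83 in N2 (change 3.69, standard error 0.226, adjusted p = 7.49e-09). aqp-2 read 10.62, 10.46 and 11.31 in osm-11 worms, against 8.09, 8.42 and 8.35 in N2 (change 2.51), and its second probe set changed by 2.71 and was called too. aqp-1 was high in a single osm-11 array, at 6.43, 6.89 and 9.22 in osm-11 worms against 6.35, 6.42 and 6.37 in N2, and was not called. No gene was called among 10 sodium, potassium and proton pump genes, 19 vacuolar proton pump genes or 10 genes of the WNK kinase pathway and chloride transport, whose medians were -0.05, 0.20 and -0.06.

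Amino acid breakdown and sulfur metabolism held called genes as well. All 6 genes of tyrosine and phenylalanine degradation lay above 0 with a median of 1.33, and 2 were called, the 4-hydroxyphenylpyruvate dioxygenase gene hpd-1 (10.08, 9.62 and 10.005 in osm-11 worms, against 8.25, 8.24 and 8.20 in N2) and gst-42, a maleylacetoacetate isomerase gene (8.49, 8.38 and 8.42 against 6.59, 6.41 and 6.85). The change of hpd-1, 1.67, was near the threshold, and its call was lost at 1.58 without osm-11 replicate 1. Of 11 genes of amino acid synthesis and one-carbon metabolism, 3 were called higher. These were asns-2, an asparagine synthetase gene (3.19), and the cystathionine gamma-lyase genes cth-1 and cth-2, which make cysteine. cth-1 read 7.53, 7.62 and 7.54 in osm-11 worms, against 4.77, 4.73 and 4.69 in N2 (change 2.83, standard error 0.167, adjusted p = 4.86e-09), and cth-2 read 12.09, 11.79 and 11.84 in osm-11 worms, against 9.46, 8.98 and 8.84 in N2. The values of cth-1 were tight in both groups. Some further genes of this kind were chosen after their values were seen. The cysteine dioxygenase gene cdo-1, the first step of cysteine breakdown, read 8.06, 8.03 and 8.27 in osm-11 worms, against 5.44, 5.57 and 4.28 in N2 (change 3.03). The histidine breakdown genes haly-1, for histidine ammonia-lyase, and uroc-1, for urocanate hydratase, changed by 2.39 and 3.15. All 3 were called.

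Families of antimicrobial peptides and secreted defence proteins held several called genes, beside 3.33% called higher over all genes tested. The nlp, caenacin and similar immune classes were picked out by the study on these samples, so their counts are not independent evidence of a direction. Of 8 caenacin genes, 3 were called higher, led by cnc-7 at 8.76, 8.39 and 9.09 in osm-11 worms against 3.44, 3.52 and 3.56 in N2 (change 5.24, standard error 0.213, adjusted p = 8.57e-11), followed by cnc-3 (3.56) and cnc-4 (2.99). The other 5 changed by -0.31 to 0.71. Of 9 epidermal nlp genes, which encode short peptides induced by fungal infection and wounding, 4 were called. nlp-29 read 11.57, 10.38 and 11.67 in osm-11 worms, against 6.91, 7.01 and 7.29 in N2 (change 4.14). nlp-28 read 11.28, 10.68 and 11.60 in osm-11 worms, against 8.41, 8.08 and 8.80 in N2 (change 2.75). nlp-30 and nlp-31 rose by 2.07 and 2.16. In all 4 the osm-11 array of replicate 2 was the lowest of the 3 and still above every N2 array. The probe sets of these 4 genes can cross-hybridize within the family, and without probe sets of that type none of them is measured, so their single values are uncertain. Together with cyp-34A9, a cytochrome P450 gene, the 4 form the longest run of neighbouring called genes, 5 in a row on chromosome V among the genes tested. cyp-34A9 rose by 1.78, which fell to 1.51 and was not called without osm-11 replicate 3.

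Lysozymes had 5 of 12 members called and a median of 1.45. lys-7 read 12.47, 12.06 and 12.71 in osm-11 worms, against 8.24, 8.54 and 8.11 in N2 (change 4.12, standard error 0.187, adjusted p = 3.04e-10). lys-10 read 6.18, 5.97 and 5.89 in osm-11 worms, against 2.61, 2.59 and 2.62 in N2, near the background. lys-8 changed by 2.18, whereas lys-2 lay at -1.15 and was not called. Of 66 C-type lectin genes tested, of 220 on the array, 17 were called higher and 2 lower, and the median over the 66 was 0.31. The 3 with the largest rise were clec-49 (8.94, 8.78 and 9.16 in osm-11 worms, against 6.15, 5.88 and 3.97 in N2), clec-50 (12.13, 11.90 and 12.34 in osm-11 worms, against 8.77, 8.93 and 8.81 in N2) and clec-48 (10.05, 10.15 and 10.21 in osm-11 worms, against 7.22, 7.32 and 6.83 in N2). clec-49 varied more in N2 than in osm-11. The probe sets of clec-49 and clec-50 can be shared by similar sequences, and without such probe sets 8 lectin genes were called higher. Of 15 saposin-like genes, 2 were called, led by spp-8 (9.09, 8.73 and 9.98 in osm-11 worms, against 6.57, 6.6 and 6.36 in N2). The other was spp-24 (1.69), whose call was lost at 1.48 without osm-11 replicate 2 and at 1.5 without N2 replicate 3. Among 11 genes of the p38 MAP kinase pathway, which controls many of these effectors, the adaptor gene tir-1 (2.35) and the receptor gene dcar-1 (1.98) were called, and the second probe set of each was not (1.42 and 0.85).

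Detoxification families differed in their share of called genes, beside 3.33% called higher over all genes tested. Of 33 cytochrome P450 genes, 8 were called higher, led by cyp-37B1 (5.79, 5.37 and 7.49 in osm-11 worms, against 2.51, 2.5 and 2.56 in N2), cyp-14A5 (2.81), cyp-32B1 (2.51) and cyp-37A1 (2.49). Most of these probe sets were dim, and with 32 added to every intensity 1 P450 gene was called. Of 25 glutathione S-transferase genes, 4 were called higher. gst-4 read 9.32, 9.11 and 9.16 in osm-11 worms, against 6.11, 6.00 and 4.64 in N2 (change 3.61), and gst-10 read 6.65, 6.03 and 6.54 in osm-11 worms, against 4.79, 3.73 and 2.86 in N2. The UDP-glucuronosyltransferases, which attach sugar to lipophilic compounds, had 1 of 45 called higher, ugt-23 (1.80), and 2 lower, ugt-63 and ugt-13 (-1.61), with a median of -0.01. The call of ugt-23 was lost at 1.55 without osm-11 replicate 3 and that of ugt-13 at -1.3 without N2 replicate 1. Of 40 short-chain and alcohol dehydrogenases, 5 were called higher and 1 lower. dhs-23 read 6.76, 5.82 and 7.38 in osm-11 worms, against 3.85, 3.64 and 3.87 in N2 (change 2.87). None of 18 superoxide and peroxide defence genes was called. The largest change among them was that of gpx-5, a glutathione peroxidase gene (1.43).

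Lipid breakdown was represented by several bright genes. Of 5 lysosomal lipase genes tested, all lay above 0 with a median of 2.06, and 3 were called. lipl-1 read 8.0, 7.58 and 8.82 in osm-11 worms, against 3.38, 3.46 and 3.34 in N2 (change 4.74, standard error 0.336, adjusted p = 4.29e-08), and lipl-5 read 11.89, 11.73 and 12.004 in osm-11 worms, against 9.44, 9.40 and 9.29 in N2 (change 2.5, standard error 0.115, adjusted p = 3.55e-10). lipl-2 was dim and uneven (4.86, 4.6 and 6.30 in osm-11 worms, against 3.16, 3.14 and 3.26 in N2), and its change of 2.06 was 1.54 and not called without osm-11 replicate 3. Of 52 fatty acid oxidation genes, 5 were called higher beside a median of 0.07. acs-2, an acyl-CoA synthetase gene induced by fasting, read 11.14, 10.92 and 11.88 in osm-11 worms, against 8.03, 7.96 and 7.82 in N2 (change 3.38), and its second probe set changed by 3.15. acox-3, acs-14 and cpt-4 rose by 1.98, 1.93 and 1.93. Among 15 lipid binding genes, far-7 (4.27), far-8 (2.31) and lbp-1 (2.15) were called. Of 7 fatty acid desaturases, fat-7 fell and none rose, while fat-6, its closest relative, read 11.36, 11.13 and 11.72 in osm-11 worms against 10.93, 11.18 and 11.24 in N2, where the values overlapped. The polyunsaturated fatty acid genes fat-1 to fat-4 changed by 0.79 to 1.00 without a call. No fatty acid elongase and no vitellogenin gene was called. Chosen after their values were seen, icl-1, which encodes the glyoxylate cycle enzymes that let fat carbon enter sugar synthesis, rose by 2.64 on the brightest of 3 probe sets, all of them called, at 13.79, 13.52 and 14.003 in osm-11 worms against 10.73, 11.15 and 11.51 in N2. The phosphoenolpyruvate carboxykinase gene pck-1, which opens gluconeogenesis, read 10.24, 9.99 and 10.12 in osm-11 worms, against 7.63, 8.17 and 7.84 in N2 (change 2.24).

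Further genes of degradation in lysosomes were noticed after their values were seen. The DNase II gene nuc-1 read 11.76, 11.35 and 11.85 in osm-11 worms, against 8.57, 8.77 and 8.52 in N2 (change 3.03). The acid ceramidase gene asah-1 read 9.98, 9.64 and 10.49 in osm-11 worms, against 6.95, 6.95 and 6.77 in N2 (change 3.15). The hexosaminidase gene hex-1 rose by 2.16 and the legumain gene lgmn-1, an asparaginyl endopeptidase, by 2.1. The osm-11 and N2 values of each did not overlap, which their choice by value nearly fixes. Of the 19 aspartyl and cysteine proteases of the list fixed for this purpose, asp-13 was called higher (1.79) and asp-12 and asp-14 lower (-2.52 and -1.62), and the call of asp-14 was lost at -1.56 without osm-11 replicate 1 and at -1.55 without N2 replicate 3.

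Cuticle and molting genes split into a quiet majority and a small set that was high but uneven in osm-11 worms. Of 102 col genes, which encode cuticle collagens, 1 was called, col-95 (13.65, 13.10 and 13.43 in osm-11 worms, against 11.34, 11.31 and 11.08 in N2), on a probe set that similar collagens share. The 5 annular furrow collagen genes, whose loss gives osmotic resistance, changed by 0.14 to 1.3 without a call, with dpy-7 highest and dim (3.94, 3.56 and 4.51 in osm-11 worms, against 2.68, 2.56 and 2.87 in N2). Of 14 other body-shape collagens, dpy-14 and dpy-17 were called. dpy-14 read 8.94, 8.0 and 10.09 in osm-11 worms, against 4.55, 4.25 and 3.51 in N2 (change 4.9, standard error 0.609, adjusted p = 2.3e-05). Replicate 3 was thus the highest and replicate 2 the lowest of the mutant arrays, and the lowest still lay above every N2 array. The same order held in osm-11 worms for the apical matrix genes noah-1 (7.89, 7.26 and 8.80, against 4.55, 4.54 and 4.77 in N2) and noah-2 (6.6, 5.50 and 7.56, against 2.99, 2.35 and 2.15 in N2), for sym-1, the astacin protease gene hch-1 and the hedgehog-related gene wrt-10, and for dpy-17. The second probe set of sym-1 changed by 0.18 and that of noah-1 by 4.48. For the collagen gene sqt-3 the dimmer probe set, named here after its values were seen, was called at 3.34 with the same order of arrays, and the bright shared one changed by 0.32. The fourth called gene of the molting list, mlt-8 (1.61), lost its call without osm-11 replicate 3 (1.01), N2 replicate 1 (1.52) or N2 replicate 2 (1.52). In all, 4 of 32 molting and apical matrix genes, 3 of 18 astacin proteases and 1 of 25 hedgehog-related genes were called higher, and none lower.

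Heat shock genes followed the same order of replicates. The heat shock gene hsp-16.41 read 4.85, 2.79 and 7.66 in osm-11 worms, against 3.24, 3.31 and 3.23 in N2, and hsp-70 read 5.74, 3.07 and 7.66 in osm-11 worms, against 3.07, 3.22 and 3.22 in N2. osm-11 replicate 2 lay at the N2 level in both. Neither was called (adjusted p = 0.112 for hsp-16.41 and 0.0396 for hsp-70 in limma), and without that array both were called, at 3.0 and 3.53. With all 30 arrays fitted and none left out, hsp-70 was called as well (change 2.32, adjusted p = 0.0065 in limma). No gene was called among 10 small heat shock genes, 44 cytosolic and mitochondrial chaperones and 15 genes of the endoplasmic reticulum response. Among the chaperones 3 of 44 changes lay above 0 and the median was -0.44. Over all 441 probe sets called higher, osm-11 replicate 2 was the lowest of the 3 osm-11 arrays in 364 and replicate 3 the highest in 326. The same shares over all probe sets were not taken. Replicate 2 was also lowest in lists without a call, such as ribosomal proteins (mean log2 levels of 14.34, 14.14 and 14.35) and vitellogenins (15.18, 14.87 and 15.10). It was not lowest in every list (sperm, 6.10, 6.15 and 6.76). A low replicate 2 was thus not particular to molting and heat shock genes. The part of this array order in the calls was not tested beyond leaving arrays out: of the 441, 431 were called without osm-11 replicate 2, 345 without replicate 3 and 393 without replicate 1. The spike-in controls added before hybridization averaged 9.55, 9.81 and 9.36 in the osm-11 arrays, against 9.23, 9.87 and 10.69 in the N2 arrays, and the 3' minus 5' difference of the actin control was 1.32, 1.19 and 1.23 in osm-11, against 1.2, 1.22 and 1.44 in N2.

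**Figure D3:**
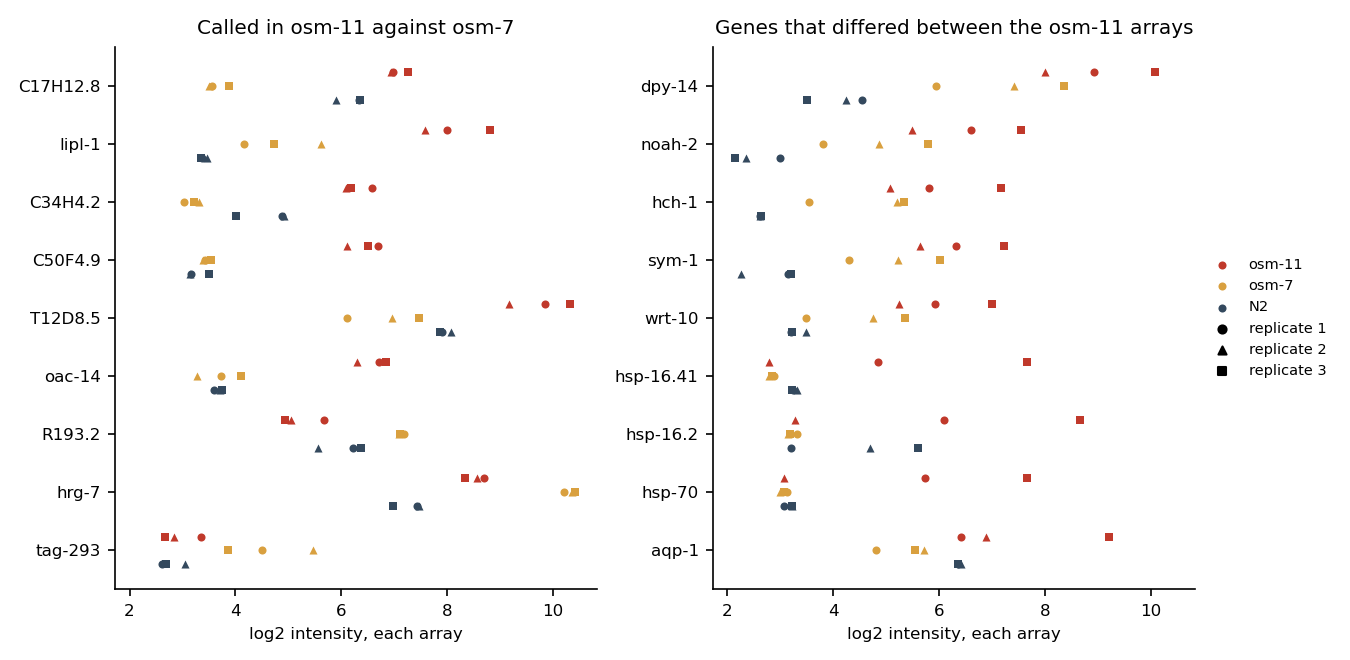
Log2 intensity of each array for genes called between osm-11 and osm-7 (left panel) and for genes that were uneven among the osm-11 arrays (right panel), with osm-11 above osm-7 above N2 in each row and the replicate number as the marker shape. On the left the osm-11 and osm-7 values of each gene do not overlap, and on the right osm-11 replicate 3 lies highest and, except for aqp-1, replicate 2 lowest of the mutant arrays.

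Neuropeptide genes lay almost all slightly above 0. Of 34 tested, 33 changes lay above 0 with a median of 0.62, and 5 were called higher, while over all probe sets 36.3% of changes lay above 0 and over all genes 3.33% were called higher with a median of -0.10. nlp-20 read 7.61, 7.23 and 8.06 in osm-11 worms, against 4.87, 4.52 and 4.09 in N2 (change 3.14, standard error 0.242, adjusted p = 1.14e-07), and flp-9 read 5.42, 5.51 and 5.59 in osm-11 worms, against 3.21, 3.38 and 3.65 in N2 (change 2.09). nlp-6 and nlp-10 rose by 1.84 and 1.93, and a second nlp-6 probe set, which did not pass the filter, changed by -0.01. The proprotein convertase gene egl-3, which cuts neuropeptide precursors and was listed as a neuronal marker, read 7.51, 7.54 and 7.83 in osm-11 worms, against 5.67, 5.59 and 5.84 in N2 (change 1.93), while its second probe set changed by 1.29 without a call. The amidation enzyme genes pghm-1 (1.92) and pgal-1 (1.75), which finish such peptides, were called as well and were chosen after their values were seen. The insulin-like gene ins-7 was the only called member of 18 genes of the insulin-like pathway, at 7.53, 6.94 and 7.15 in osm-11 worms against 4.20, 4.85 and 5.00 in N2 (change 2.52, standard error 0.31, adjusted p = 2.06e-05). The neuronal marker list as a whole, with 1 of 10 genes called, summed to intensities of 2728 to 3634 in osm-11 and 2488 to 2743 in N2. A difference in the number of cells of a type and a difference in RNA per cell cannot be told apart in whole worms.

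Genes of growth and of the germ line lay on the other side of 0 without a call. All 33 proteasome genes (median -0.38), all 18 germ line genes (-0.47) and all 23 DNA replication and mitosis genes (-0.43) had changes below 0, as had 22 of 24 oocyte and embryo genes (-0.49) and 72 of 74 ribosomal protein genes (-0.18), beside a median of -0.10 over all genes. These lists are bright, with mean log2 levels in N2 replicate 1 from 10.34 (germ line) to 14.47 (ribosomal proteins). A median over equally bright genes was not taken, so whether these differences are particular to the lists was not tested. The oocyte gene cey-3, at 12.31, 12.08 and 12.23 in osm-11 worms against 12.92, 12.80 and 12.92 in N2, shows the size of these differences, which stayed under 3-fold for every member. The germ line markers summed to 19863 to 23264 in osm-11 and 27725 to 30741 in N2, and the oocyte and embryo markers to 136066 to 157242 in osm-11 and 181226 to 190736 in N2, without overlap. The sums of the intestine markers were 68586 to 80057 in osm-11 and 48519 to 52487 in N2, with 0 of 13 called, and those of the epidermis markers 2146 to 2801 in osm-11 and 1687 to 1810 in N2, with elt-3 and hpd-1 called of 14, neither of them without osm-11 replicate 1. Bright genes weigh most in such sums, and hpd-1, whose rise is given above, makes up a large part of the epidermis sum. A sum without hpd-1 was not taken, so the epidermis sums do not show that the other epidermis markers rose. Muscle and pharynx markers were also higher in sum in osm-11 and had no call. The sperm markers spread over an equal range in the groups, 12714 to 28949 in osm-11 and 12624 to 25413 in N2. None of 4 male genes passed the filter. The part of these tissue sums in the calls above was not tested.

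**Figure D4:**
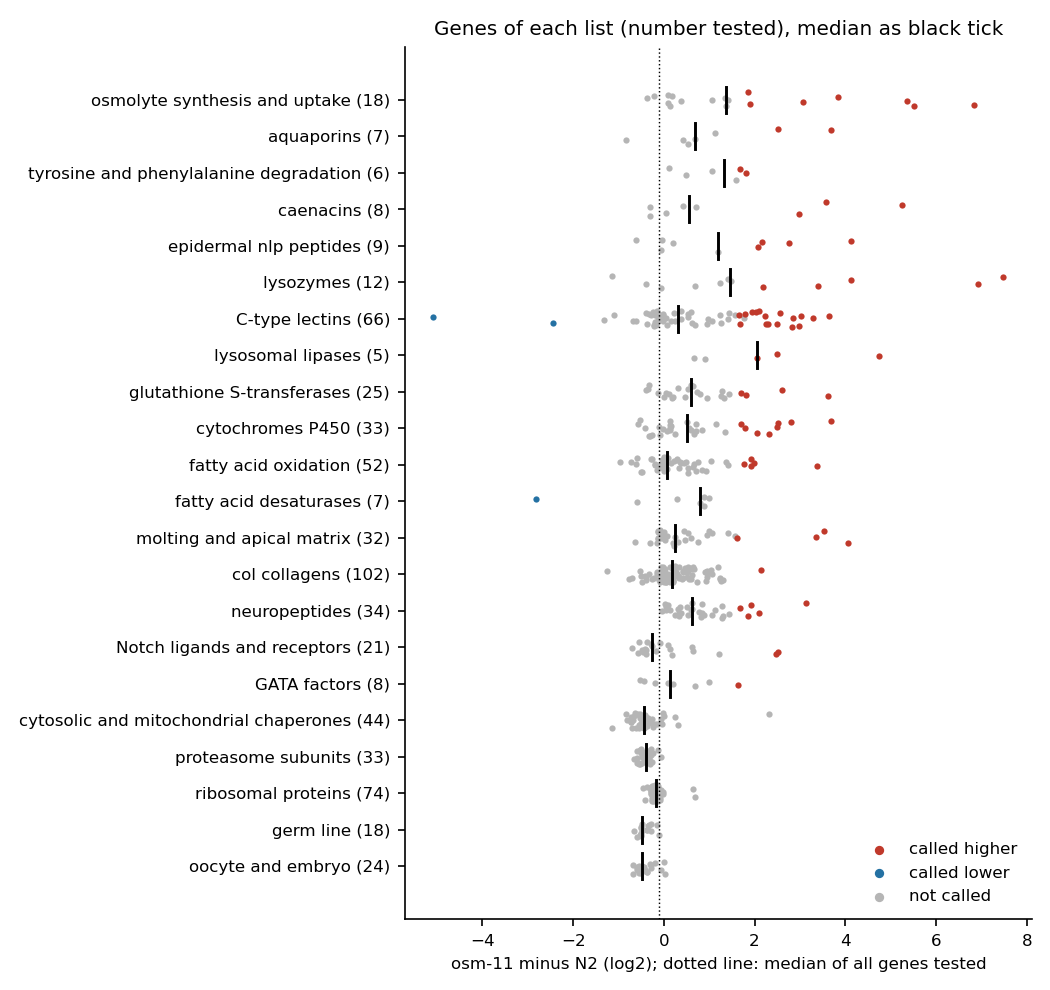
Log2 change in osm-11 against N2 of every gene tested in 22 of the gene lists, 1 probe set a gene, with called genes in colour, the median of each list as a black tick and the median of all 10476 genes as a dotted line. Called genes are seen mainly in the upper lists, and proteasome, germ line and oocyte genes lie in a narrow band below 0.

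The called genes were spread unevenly over the chromosomes. On chromosome V, 109 of 1857 genes tested were called higher (5.87%), on X 59 of 1367 (4.32%), on IV 63 of 1737 (3.63%), on II 53 of 1807 (2.93%), on III 36 of 1648 (2.18%) and on I 24 of 1796 (1.34%), beside 3.33% over all genes. Lower calls made up 0.11 to 0.44% of each of these. None of 8 mitochondrial genes was called. There were 35 pairs of neighbouring tested genes both called higher and 3 runs of 3 or more. The number of all neighbouring pairs was not taken, so these counts do not show whether called genes cluster. Besides the nlp run, the runs were C50F4.8, C50F4.9 and C50F4.1 on V and kreg-1, F53A9.1 and F53A9.6 on X. C50F4.9 read 6.70, 6.11 and 6.51 in osm-11 worms, against 3.16, 3.14 and 3.50 in N2, and F53A9.1 read 9.80, 9.79 and 10.38 in osm-11 worms, against 6.19, 5.71 and 6.43 in N2. C50F4.8 (1.72) and kreg-1 (1.69) were near the threshold. The call of C50F4.8 was lost without osm-11 replicate 3 (1.58) and without N2 replicate 1 (1.55), and that of kreg-1 without each array except osm-11 replicate 2, at 1.47 to 1.74.

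Set directly against the osm-7 mutant, which lacks the related secreted protein, osm-11 worms differed in few genes. There were 62 probe sets called higher (0.442%) and 4 lower (0.0285%), standing for 44 and 3 genes with 1 probe set each. These counts depended on the arrays and the fit. Without osm-11 replicate 2, 106 probe sets were called higher, and without osm-11 replicate 3, 41. The 4 lower calls were 2 without osm-11 replicate 2 or osm-7 replicate 2. With the spread taken from the 2 groups alone nothing was called in either direction, with a lowest adjusted p of 0.0129 and 1295 probe sets at an unadjusted p under 0.05, beside 1416 in the fit over the 18 isotonic arrays. C17H12.8 differed most, at 6.97, 6.95 and 7.26 in osm-11 worms against 3.56, 3.51 and 3.89 in osm-7 worms, and N2 lay nearer to osm-11 at 6.34, 5.90 and 6.36. Its second probe set changed by 0.11 against N2, beside 0.86 on the first. C34H4.2 read 6.58, 6.09 and 6.18 in osm-11 worms, against 3.04, 3.31 and 3.22 in osm-7 worms. In oac-14, named as an O-acyltransferase gene, osm-7 stood near N2, with 6.71, 6.30 and 6.85 in osm-11 worms, 3.74, 3.27 and 4.10 in osm-7 worms and 3.60, 3.71 and 3.75 in N2. T12D8.5 and C50F4.9 differed by 2.94 and 2.99, and lipl-1 by 3.29 (8.0, 7.58 and 8.82 in osm-11 worms, against 4.16, 5.63 and 4.74 in osm-7 worms).

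Several genes that rose against N2 were also higher than in osm-7. fmo-2 (2.48, adjusted p = 0.000367), ilys-3 (2.49, adjusted p = 0.000147), C50F7.5 (2.07, adjusted p = 1.47e-05), far-7 (2.64, adjusted p = 0.000109) and tre-5 (1.91, adjusted p = 0.00374) were higher in osm-11 than in osm-7 in limma and were called. dhs-23 was at the N2 level in osm-7, with 6.76, 5.82 and 7.38 in osm-11 worms, 3.87, 3.86 and 3.86 in osm-7 worms and 3.85, 3.64 and 3.87 in N2. The osmolyte genes gave no call in the other direction: gpdh-1 read 9.60, 10.04 and 9.19 in osm-7 worms (difference -1.04, adjusted p = 0.0556), hmit-1.1 differed by -0.70 and aagr-1 by 0.19. gst-4 was lower in osm-11 than in osm-7 by a difference of -1.47 (adjusted p = 0.00478), short of 3-fold. The 3 genes called lower were R193.2 (5.68, 5.05 and 4.93 in osm-11 worms, against 7.20, 7.10 and 7.10 in osm-7 worms), hrg-7, an aspartyl protease gene of heme signalling (8.70, 8.57 and 8.35, against 10.22, 10.35 and 10.42), and tag-293 (3.35, 2.85 and 2.67, against 4.51, 5.47 and 3.85). The second probe set of R193.2 changed by 0.05 against N2. The call of tag-293 was lost without osm-11 replicate 2 (-1.60) or 3 (-1.51) and without osm-7 replicate 1 (-1.71) or 2 (-1.23).

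Against salt-grown N2, which carries the wild type gene and has adapted to 200 mM NaCl, 242 probe sets were called higher in osm-11 worms (1.72%) and 84 lower (0.598%), standing for 198 and 63 genes. The lower count was 53 without osm-11 replicate 2. The osmolyte genes gpdh-1 (8.84, 8.79 and 8.08 in osm-11 worms, against 8.74, 8.41 and 7.47 in salt-grown N2) overlapped in level, and hmit-1.1 and aagr-1 were higher by 1.43 and 1.36, under 3-fold. Of the 18 genes of the osmolyte list, the trehalase gene tre-5 alone was called (3.85). fmo-2 differed by 8.03 (10.16, 10.28 and 11.09 in osm-11 worms, against 2.13, 2.14 and 3.17 in salt-grown N2) and ilys-3 by 5.99. The noncoding RNA gene tts-1 read 11.05, 11.09 and 11.56 in osm-11 worms, against 4.61, 5.61 and 5.89 in salt-grown N2, and isotonic N2 lay between them at 8.38, 8.98 and 9.75. cnc-4, raised against isotonic N2, was higher than in salt-grown N2 by 4.81, and cnc-7 by 0.74 without a call. Chosen after its values were seen, catp-3, a cation-transporting ATPase gene, read 8.03, 8.06 and 8.20 in osm-11 worms, against 2.32, 2.64 and 4.31 in salt-grown N2 (difference 5.00). The collagen genes col-81, col-139 and col-129 were lower in osm-11 worms by -3.16, -3.03 and -2.96, and these 3 had no call against isotonic N2. col-81 read 7.38, 7.70 and 8.14 in osm-11 worms, against 11.02, 11.03 and 10.65 in salt-grown N2. Of 48 sperm genes, 20 were called lower, all of them major sperm protein genes with near-identical sequences. None of the 48 was called against isotonic N2. The sperm genes summed to 51321 to 56485 in salt-grown N2, above both osm-11 (12714 to 28949) and isotonic N2 (12624 to 25413). Among the other N2 groups on 200 mM NaCl the sums ran from 4264 (6 h) to 98963 (15 min). clec-47 read 7.63, 7.78 and 7.64 in salt-grown N2 and was called lower in osm-11 by -2.91.

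For 93 of the probe sets tested, all 3 osm-11 arrays lay above all 27 other arrays of the series, and 44 of these were called higher against N2. For 59 they lay below all others, and 3 of these were called lower. The choice of these genes fixes their order, so the levels are a description. fmo-2, C50F7.5, tre-5, lys-7, lys-10, far-7, C50F4.9, tts-1 and ins-7 were among the first, and dhs-25 and sur-5 among the second. tre-5 read 4.44, 3.69 and 4.18 in osm-7 worms and 2.18, 2.18 and 2.16 in salt-grown N2. far-7 was nearest to osm-11 in osm-8 worms, at a mean of 8.46 in osm-11 and 7.79 in osm-8. Of these, nta-1 and scl-2, as well as irg-5, were chosen after their values were seen. nta-1 read 9.19, 8.89 and 9.11 in osm-11 worms, against 6.90, 6.29 and 6.54 in osm-7 worms and 5.76, 5.92 and 6.53 in N2. scl-2, of the secreted SCP/TAPS family, read 11.68, 11.53 and 12.47 in osm-11 worms, 10.39, 10.29 and 10.44 in osm-7 worms and 7.39, 7.71 and 8.12 in N2. irg-5, an infection response gene, was higher than in N2 by 3.34 but did not lie above every other array.

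**Figure D5:**
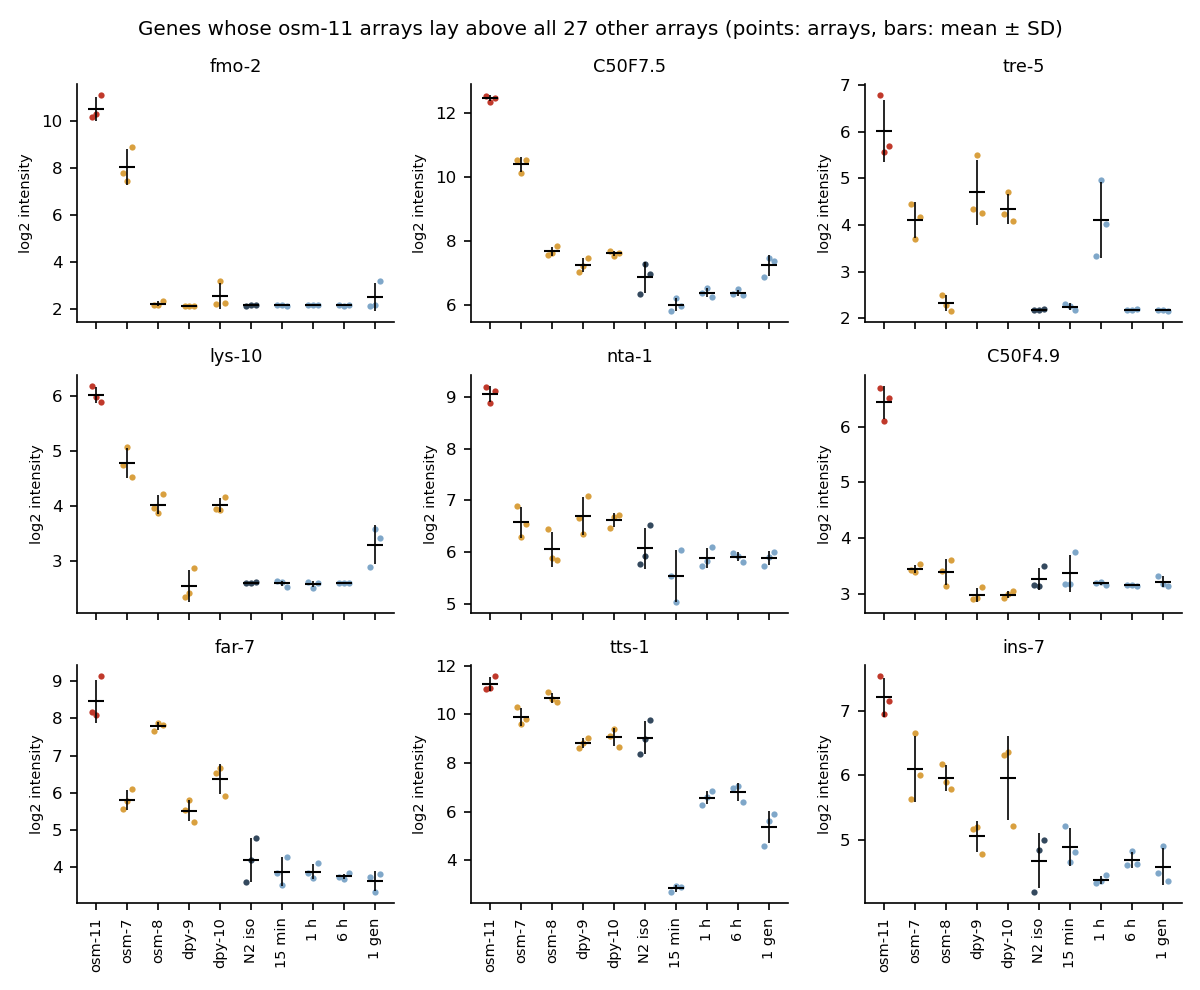
Log2 intensity of all 30 arrays for 9 genes whose osm-11 arrays lie above the other 27, as points with the group mean and SD, with osm-11 leftmost, then the other mutants, isotonic N2 and the N2 groups on 200 mM NaCl in order of time (15 min, 1 h, 6 h, 1 generation). fmo-2 is at the background outside osm-11 and osm-7 in nearly all arrays, and the osm-11 mean is 6.44 for C50F4.9, against 3.45 in osm-7, the next highest group.

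All comparisons with isotonic N2 rest on the same 3 arrays. In 117 of the 441 higher calls and 9 of the 30 lower ones, all 27 other arrays of the series lay on the same side of the 3 isotonic N2 arrays, as was the case for gpdh-1, aagr-1, osm-11, fat-7 and msra-1. Among all probe sets tested this was so for 318 and 252. In these calls a difference of the osm-11 worms and a difference of the isotonic N2 arrays cannot be told apart. The differences against osm-7 and against salt-grown N2 do not use those arrays. Their adjusted p-values do, through the shared estimate of the spread.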

How the data were processed

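Total RNA from pools of sorted whole worms was hybridized to Affymetrix C. elegans arrays. The authors deposited 1 table of linear intensities, normalized over the arrays with GC-RMA in Partek per the labels, and log2 was taken of them here. Present calls and the SAM test of the methods were not used here. Tests used limma 3.58.1 in R 4.3.3 over the 18 isotonic arrays (21 for salt-grown N2), with Benjamini-Hochberg adjustment over 14038 probe sets, and figures matplotlib 3.10.9. Of 22548 probe sets, 20766 stood for 1 gene (20701 matched to RefSeq, assembly WBcel235), 887 for several and 895 for none named. Lists use the probe set of a gene with the highest mean over the 30 arrays.

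Genes were named by rule: fixed genes of the study, the 15 largest rises and 10 largest falls, up to 4 called members of each list, the largest differences against osm-7 and salt-grown N2, and members of neighbouring runs. The largest rises and falls were taken among called genes whose osm-11 and N2 values do not overlap. Genes outside these rules are marked as chosen after their values were seen. Comparisons, members and lists were chosen with earlier results of these data known. Alternatives changed the filter, samples fitted, normalization, offset, variance prior, probe set type, thresholds, replicate block and replicates. An array number limits precision, since signals are not counts.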

Additional observations from a re-analysis of the deposited data

Results flagged for a closer look

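The array carries worm control probe sets that are outside the comparisons above. Those for Gapdh, a glycolytic enzyme, lay higher in all 3 osm-11 arrays than in all 3 N2 arrays, by 1.35 in the 3' region (12.40, 12.09 and 12.48 in osm-11, against 11.11, 10.93 and 10.86 in N2), 1.4 in the 5' region and 1.13 in the middle region on the log2 scale. Those for catalase did likewise, by 0.68, 1.18 and 0.93 in the 3', 5' and middle regions. The actin controls differed by -0.09, -0.04 and -0.25 and the ubiquitin controls by -0.16, -0.10 and -0.13 in the 3', 5' and middle regions. None of these differences was tested.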

How the results depend on the processing

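Against N2, the 441 higher calls were 277 with only the 2 groups fitted and 207 with 32 added to each intensity. They were 262 without _x_at and _s_at probe sets and 845 at 2-fold. The 30 lower calls were 18 under a stricter filter, 7 with 32 added and 105 at 2-fold. Leaving out 1 array gave 347 to 538 and 28 to 34. Without _x_at and _s_at probe sets 8444 were tested, and under the stricter filter 9258, instead of 14038. Counts from these 2 settings, here and below, are therefore not directly comparable with the main counts. Against osm-7, the 62 higher calls were 0, 20, 36 and 107 with 2 groups, 32 added, without those probe sets and at 2-fold, and 41 to 106 with 1 array left out. The 4 lower calls were 2 under the stricter filter, 0 with 2 groups, 1 with 32 added, 20 at 2-fold and 2 to 6 with 1 array left out. Against salt-grown N2, the 242 higher calls were 105, 114, 153 and 470 and the 84 lower calls 18, 42, 26 and 193 in the same order of settings, with 190 to 327 and 53 to 109 when 1 array was left out. The causes were not tested. Same-numbered replicates did not deviate together (r of 0.187, -0.087 and -0.205 for osm-11 and N2). Some arrays of different number did, as osm-11 replicate 2 with osm-7 replicate 1 (r of 0.524) and with N2 replicate 3 (0.302). Other such pairs went the opposite way, as osm-11 replicate 3 with osm-7 replicate 1 (-0.428). With the replicate number as a block the counts were 438 and 30 against N2, 59 and 4 against osm-7 and 239 and 82 against salt-grown N2. Such a block does not take up deviations shared by arrays of different number, and their part in the calls was not tested. Of 2171 alternatives for 140 named values, 2038 kept call and direction, 126 lost the call, 6 gained one and 1 turned, that of osm-8 (-0.0307 to 0.0003 with 1 array left out, above 0 without N2 replicate 3). Of the lost calls, 47 came with 32 added and 31 with only the 2 groups fitted, the second including, against N2, dsl-3, elt-3, clec-49, cyp-14A5, cyp-34A9, cyp-37A1, cyp-37B1, gst-10, dpy-17, hch-1, wrt-10, mlt-8, lipl-2, nlp-10, spp-24, kreg-1, ugt-13, ugt-23, swt-3 and C50D2.6. Counts within lists were rerun as an alternative chosen after seeing the data.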
